A study of Rattus norvegicus with 6 samples.

Results

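The insulin-like growth factor (IGF) genes described here are 10 of the 13728 genes held in the copy analysed of the deposited rat expression table. They are the rows whose symbol is Igf1, Igf2, Igf1r or one of Igfbp1 to Igfbp7, and all 10 symbols were present: 2 ligands, 1 receptor and 7 binding proteins. The study asked how rat endometrial epithelial organoids (rEEOs) differ from bone marrow mesenchymal stem cells (rBMSCs) as material to repair an injured uterus, and bulk RNA-seq was performed on 3 samples of each. The rEEOs were grown from uterine gland fragments of young female Sprague-Dawley rats, at low passage in Matrigel, and no hormone treatment is named for the sequenced samples. Their expansion medium lists no serum and held B27, N2, nicotinamide, insulin-transferrin-selenium, EGF, FGF10, Noggin, Wnt3a, R-Spondin-1, A83-01 and Y27632. The rBMSCs were a purchased stock labeled with red fluorescent protein, grown in dishes in DMEM/F12 with fetal bovine serum. Cell type, donor, matrix, serum and added insulin therefore cannot be told apart in these libraries. Nothing in the labels says that the samples of a group came from separate animals or cultures, so p-values measure only the spread between these samples. The expected counts of the genes held summed to between 10457958 and 15421501 per library. All 10 epithelial markers were called higher in rEEOs, and 9 of 10 mesenchymal markers were called lower. In rEEOs the mesenchymal markers summed to between 172 and 298 TPM (transcripts scaled by length to a fixed library total), nearly all of it Vim, and Thy1 and Pdgfrb had no count.

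IGF1 and IGF2 are small secreted growth factors related to insulin, and both signal through the receptor tyrosine kinase that Igf1r encodes. The secreted proteins IGFBP1 to IGFBP6 bind the ligands with high affinity, carry them and limit or release their action, whereas IGFBP7 binds them weakly and is found in matrix and around vessels. In the uterus the system is known for growth driven by estrogen and for the contact between epithelium, stroma and embryo. IGFBP1 is best known as a liver product that insulin represses and, in humans, as a product of decidual stroma.

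The bases in front of the start sites of 4 binding protein genes are shown because these genes gave the contrasts between the cell types: Igfbp1 and Igfbp7 were higher in rEEOs, Igfbp4 was lower and Igfbp3 was called in neither direction. Sequences are from RefSeq on the GRCr8 build, 5′ to 3′ on the strand of the gene, and stop before the first base of any transcript. Igfbp1 lies on the plus strand (chr14:86261027-86261276), Igfbp3 on the minus strand (chr14:86277945-86278194), Igfbp7 on the plus strand (chr14:31091486-31091680) and Igfbp4 on the plus strand (chr10:84491221-84491470). Capitals mark matches, on either strand, to CAAAACA, the core of the insulin response element to which FOXO factors bind, to GTAAACA, a forkhead motif, to TATAAA and to GGGCGG, a motif of SP1.
Igfbp1: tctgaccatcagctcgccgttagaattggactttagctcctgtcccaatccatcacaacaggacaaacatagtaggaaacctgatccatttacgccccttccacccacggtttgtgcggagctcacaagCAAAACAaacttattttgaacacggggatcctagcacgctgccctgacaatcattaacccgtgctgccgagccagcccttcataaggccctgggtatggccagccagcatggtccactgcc
Igfbp3: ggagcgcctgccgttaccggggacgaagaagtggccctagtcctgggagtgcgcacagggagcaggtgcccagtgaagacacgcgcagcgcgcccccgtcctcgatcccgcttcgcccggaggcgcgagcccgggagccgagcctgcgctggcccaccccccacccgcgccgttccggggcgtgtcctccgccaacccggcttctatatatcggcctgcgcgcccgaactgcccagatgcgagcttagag
Igfbp7: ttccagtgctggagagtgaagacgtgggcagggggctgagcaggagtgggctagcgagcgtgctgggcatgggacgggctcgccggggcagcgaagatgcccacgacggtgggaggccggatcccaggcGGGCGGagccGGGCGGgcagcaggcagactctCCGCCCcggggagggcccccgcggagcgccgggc
Igfbp4: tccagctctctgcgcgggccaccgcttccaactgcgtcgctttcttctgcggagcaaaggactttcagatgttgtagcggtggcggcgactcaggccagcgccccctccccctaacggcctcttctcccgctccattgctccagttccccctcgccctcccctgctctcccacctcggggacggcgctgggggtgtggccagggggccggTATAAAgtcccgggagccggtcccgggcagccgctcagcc
Igfbp1 held CAAAACA once, starting 121 bases before the start site, a motif that 5.46% of the 33469 promoters of the table hold in 250 bases. Igfbp7 held GGGCGG at 3 places in 195 bases, and 23.4% of promoters hold it at least once in a window of that length. The share of promoters with 3 matches was not counted. GGGCGG was also found in front of Igfbp2, which had too few reads to be tested, and of a start site of Igf2, which was called lower in rEEOs. Whether the motif bears on the level of any of these genes was not tested. Igfbp4 held TATAAA starting 40 bases before its start, compared to 12.9% of promoters with a match in 250 bases. The Igfbp3 window held none of the 4 motifs, and GTAAACA, which 3.21% of promoters hold in 250 bases, was found in front of Igfbp6. In RefSeq order Igfbp1 and Igfbp3 are neighbours on chromosome 14 with 0 protein-coding genes between them, and so are Igfbp2 and Igfbp5 on chromosome 9. A match of letters is a description of the sequence and not a measured binding site.

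rEEOs and rBMSCs differed in part of their IGF binding proteins, while Igfbp7 had the highest TPM of them in every library and Igfbp3 was read in both. Over 10607 genes tested with edgeR's quasi-likelihood method, the study's thresholds were kept: a call needed more than 2 log2 units of difference, either way, and an adjusted p under 0.05. Igfbp1 and Igfbp7 were called higher in rEEOs (2 of 9 members tested), compared to 16.3% of all genes tested. Igf1, Igf2, Igfbp4, Igfbp5 and Igfbp6 were called lower (5 of 9), compared to 13.3% of all genes, so that 7 of 9 were called either way, compared to 29.7%. At any fold change 8 of 9 had an adjusted p under 0.05 (2 higher and 6 lower), compared to 63.4% of all genes (33.3% higher and 30.2% lower). Igf1r and Igfbp3 were tested and not called, and Igfbp2 had too few reads to be tested. For 6 of the 9 the other cell type had 3 counts or fewer in every library, so these genes passed the filter on low counts through 1 cell type and the count of calls is a description of the members. The median log2 fold change was -3.63 over the 9 members tested and 0.08 over all genes tested. In bulk samples, fewer cells of a type and less RNA per cell cannot be told apart. Taken alone, no gene could reach a p under 0.1 by exact permutation of 3 libraries against 3.

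**Figure D1:**
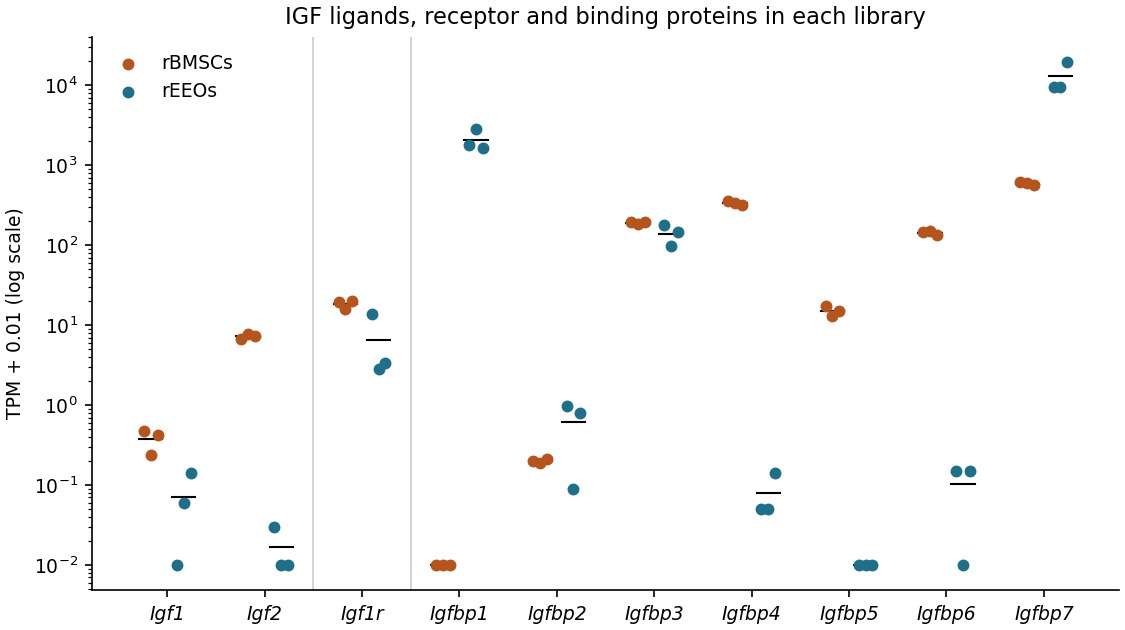
TPM of each member plus 0.01 on a log axis, 1 point per library and a bar at the mean of 3 libraries, with rBMSCs in orange and rEEOs in blue. The rEEOs points of Igfbp7 lie between 9522 and 19691 TPM and the rBMSCs points between 560 and 611 TPM, whereas Igfbp3 lies between 98.2 and 195 TPM in both cell types.

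The ligands were rare or absent in both cell types and were read mostly in rBMSCs. Igf2, the ligand best known from fetal growth, had 6.77, 7.75 and 7.28 TPM in rBMSCs replicates 1, 2 and 3 and 0.02, 0 and 0 TPM in rEEOs. The groups did not overlap: rBMSCs had 239, 289 and 245 counts, and a single count was seen in all 3 rEEOs libraries. Pooled over libraries and scaled for library size, the level in rBMSCs was 775 times that in rEEOs, with a 95% counting interval from 139 to 30641, with an edgeR adjusted p of 2.55e-05. Igf1, the ligand that estrogen induces in uterine stroma and that growth hormone induces in liver, was barely read in either cell type. It had 0.46, 0.23 and 0.41 TPM in rBMSCs from 18, 17 and 20 counts, and 0, 0.05 and 0.13 TPM in rEEOs from 0, 1 and 3 counts. The pooled level was 13.8 times higher in rBMSCs (95% counting interval from 5.09 to 52.4), with a log2 fold change of -3.63 (SE 0.73, edgeR adjusted p = 0.00514). The counting intervals are exact (Clopper-Pearson on the share of pooled reads) and cover counting error only. At this depth 3 counts correspond to between 0.181 and 0.262 CPM (counts scaled to a fixed library total) in rEEOs, and the rEEOs levels of both ligands rest on 3 counts or fewer in each library.

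Igf1r, the receptor of both ligands, was read in both cell types. It had 19.6, 15.9 and 20.1 TPM in rBMSCs, compared to 13.6, 2.80 and 3.38 TPM in rEEOs. All rEEOs libraries lay below all rBMSCs libraries, and rEEOs replicate 1 lay 4.87 times above the lowest rEEOs library and close to rBMSCs. Its log2 fold change was -1.20 (SE 0.42, edgeR adjusted p = 0.0435), which missed the threshold on the fold change. The adjusted p did not hold: it rose above 0.05 when any library other than rEEOs replicate 1 was left out, and it was 2.2e-05 without rEEOs replicate 1, where the log2 fold change was -1.83. With library size as the only scaling the log2 fold change was -0.79 (adjusted p = 0.159 from edgeR, the highest over all alternatives, with 2.2e-05 the lowest). The SD of log2(CPM + 1) of Igf1r among rEEOs was 0.83, compared to 0.34 for the median gene in rEEOs and 0.09 for Igf1r in rBMSCs. The median gene in rBMSCs also had an SD of 0.09, so the rEEOs libraries were more spread than the rBMSCs libraries for genes in general.

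Igfbp7, the binding protein of low affinity, was one of the most abundant transcripts of rEEOs. The rBMSCs held 611, 593 and 560 TPM, and replicates 1, 2 and 3 of rEEOs held 9522, 9610 and 19691 TPM. The lowest rEEOs library lay above every rBMSCs library, and replicate 3 had 2.07 times the TPM of replicate 1. Among all genes held, Igfbp7 ranked 3, 5 and 1 by TPM in the rEEOs libraries and between 188 and 204 in rBMSCs. It made up 1.29% of the TPM of rEEOs and 0.0588% of that of rBMSCs on average. The log2 fold change was 4.77 (SE 0.46, edgeR adjusted p = 0.000218), or 27.4-fold. It lay between 4.25 and 5.15 over all alternatives.

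Igfbp1, the insulin-repressed binding protein, was read in rEEOs alone. It had 1799, 2816 and 1643 TPM in rEEOs, from 27382, 43030 and 25030 counts, and 0 counts in all 3 rBMSCs libraries. Replicate 2, with the most Igfbp1, had 1.71 times the TPM of replicate 3, which had the least Igfbp1 and the most Igfbp7. Against 3 counts in each rBMSCs library, Igfbp1 was at least 11080-fold higher in rEEOs (edgeR adjusted p = 0.00013). Because IGFBP1 is known from decidual stroma, stromal genes were read beside it. Of 7 endometrial stromal genes held, Hand2, Hoxa10, Hoxa11 and Des had 0 counts in all rEEOs libraries. The other 3 had mean levels of 86.1 TPM for Esr1, 4.54 TPM for Wnt4 and 1.83 TPM for Bmp2. The part of stromal cells in the Igfbp1 level was not tested. The summed TPM of the 7 genes lay between 51.7 and 170.1 in rEEOs and between 111 and 124 in rBMSCs. In rEEOs most of this sum was Esr1, with 164.8, 50.8 and 42.8 TPM in replicates 1, 2 and 3. In rBMSCs the mean of Esr1 was 0.053 TPM, so the sums hold different genes and do not compare stromal content.

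Igfbp7 had the highest mean TPM among the binding proteins in both cell types, and the 3 genes with the closest pattern to it were Smox, Idh3g and Usp18. Their Pearson correlations with Igfbp7 on log2(TPM + 1) were 0.9996, 0.9996 and 0.9995 over the 6 libraries, the highest among 7530 genes with at least 10 TPM in either cell type. The libraries form 2 groups by cell type, so these values mostly restate the difference between them and carry no p. Smox, which encodes spermine oxidase, had 21.2, 21.9 and 43.3 TPM in rEEOs replicates 1, 2 and 3. Usp18, an interferon-induced deconjugating enzyme, had 8.97, 8.52 and 18.0 TPM there. Idh3g, a subunit of the mitochondrial isocitrate dehydrogenase, had 141, 141 and 158 TPM.

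The binding proteins Igfbp4, Igfbp5 and Igfbp6 were read in rBMSCs and all but missing from rEEOs. Igfbp4, which restrains IGF action until the protease PAPP-A cuts it, had 360, 338 and 316 TPM in rBMSCs and 0.04, 0.04 and 0.13 TPM in rEEOs. These were 20442 reads against 5, so that the pooled level was 4098 times higher in rBMSCs (95% counting interval from 1756 to 12622, edgeR adjusted p = 4.73e-06). Igfbp6, which prefers IGF2 over IGF1, had 146, 152 and 135 TPM in rBMSCs and 0.14, 0 and 0.14 TPM in rEEOs. Its pooled level was 1292 times higher in rBMSCs (95% counting interval from 357 to 10678, edgeR adjusted p = 7.19e-06). Igfbp5, which binds matrix and is abundant in bone, had 17.6, 13.1 and 15.0 TPM in rBMSCs and no count in rEEOs, at least 70.4-fold lower in rEEOs (edgeR adjusted p = 0.000114). For each of the 3 genes the lowest rBMSCs library had at least 197 counts and the highest rEEOs library at most 3.

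Igfbp3, the main carrier of IGFs in serum, was shared by the cell types. It had 193, 185 and 195 TPM in rBMSCs and 177, 98.2 and 145 TPM in rEEOs. The TPM ranges did not overlap, but the direction of the fitted difference depended on the scaling: the log2 fold change was -0.22 with TMM (SE 0.16, edgeR adjusted p = 0.255) and 0.16 with library size alone. That choice of scaling moved the median log2 fold change of all genes by 0.38. The adjusted p of Igfbp3 lay between 0.0961 and 0.654 over the alternatives, so a difference between the cell types was not shown. Its neighbour Igfbp1 differed by the bound given above. Igfbp2, which binds IGF2 and carries an integrin-binding motif, was the rarest of the binding proteins in rBMSCs after Igfbp1. It had 2 counts in each rBMSCs library and 12, 1 and 10 counts in rEEOs, or 0.96, 0.08 and 0.79 TPM. The groups overlapped, the pooled level in rEEOs was 3.82 times that in rBMSCs (95% counting interval from 1.51 to 11.5), and without the filter on low counts the adjusted p was 0.115 (edgeR).

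Which binding protein dominates was read from TPM, which is scaled by transcript length and can be compared between genes of a library. In rBMSCs the 7 binding proteins summed to 1277 ± 53.4 TPM (SD, n = 3). Igfbp7 took 46.1% ± 0.22 of this sum, Igfbp4 26.5% ± 0.63, Igfbp3 15.0% ± 0.87, Igfbp6 11.3% ± 0.49 and Igfbp5 1.19% ± 0.15 (SD, n = 3). The order Igfbp7, Igfbp4, Igfbp3, Igfbp6, Igfbp5 held in each of the 3 libraries, and each step was larger than the spread between replicates. In rEEOs the sum was 15168 ± 5491 TPM (SD, n = 3), and 2 genes made up nearly all of it. Igfbp7 took 82.8%, 76.7% and 91.7% in replicates 1, 2 and 3, Igfbp1 took 15.6%, 22.5% and 7.65%, and Igfbp3 took 1.54%, 0.784% and 0.674%. The share of Igfbp7 was higher in every rEEOs library than in any rBMSCs library (exact two-sided permutation test, p = 0.1, the smallest that 3 against 3 allows).

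The lead of Igfbp7 in rBMSCs depended on the correction for length. Its TPM was 1.70, 1.75 and 1.77 times that of Igfbp4 in the 3 libraries, whereas its count was 0.716, 0.748 and 0.753 times that of Igfbp4. By count Igfbp4 took 39.4% of the binding protein reads of rBMSCs and Igfbp7 29.1%. The table assigns Igfbp7 0.377 and Igfbp4 0.885 times the reads per TPM of Igfbp3, which makes Igfbp7 the shorter transcript. In rEEOs Igfbp7 led on every scale, with a log2 ratio of TPM to Igfbp1 of 2.40, 1.77 and 3.58 in replicates 1, 2 and 3. Among the high-affinity proteins Igfbp1 to Igfbp6 alone, the leader differed between the cell types on every scale. Igfbp4 took 49.1% ± 1.23 of their TPM in rBMSCs and Igfbp1 took 93.2% ± 3.04 in rEEOs (SD, n = 3). The sum of these 6 was 689 ± 27.9 TPM in rBMSCs and 2227 ± 603 TPM in rEEOs. The 2 ligands together summed to 7.63 ± 0.38 TPM in rBMSCs and 0.067 ± 0.057 TPM in rEEOs (SD, n = 3), far below the binding proteins in each cell type.

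**Figure D2:**
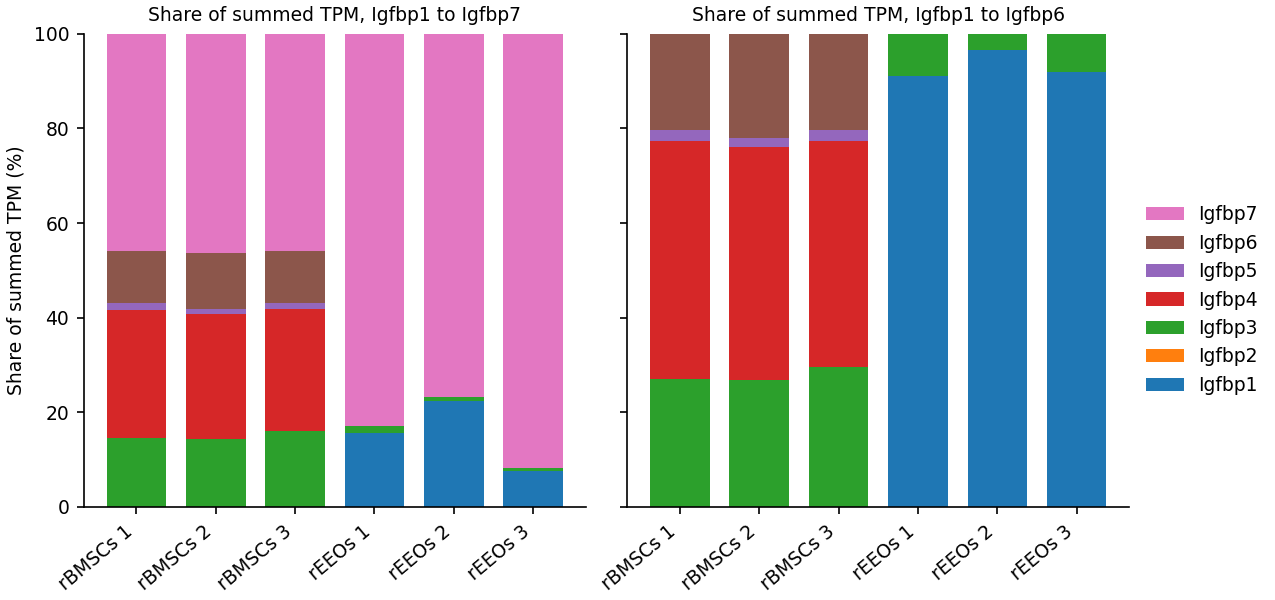
Share of the summed TPM of the binding proteins taken by each gene in each library, over Igfbp1 to Igfbp7 (left) and over Igfbp1 to Igfbp6 (right), as stacked bars from 0 to 100%. Igfbp7 fills 46.1% on average in rBMSCs and 83.7% in rEEOs, and with Igfbp7 left out Igfbp4 leads in rBMSCs with 49.1% and Igfbp1 in rEEOs with 93.2%.

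Library rEEOs replicate 1 was the highest rEEOs library for Igf1r, Insr and Grb10, and also for Esr1, with 164.8, 50.8 and 42.8 TPM in replicates 1, 2 and 3. The same held for every tested PI3K and Akt gene of the pathway list described below, such as Akt1 with 141.9, 69.0 and 67.1 TPM. Other genes of that list went the other way, and replicate 1 was the lowest rEEOs library for Irs2, Grb7, Cyr61 and Adamts1. The part that any such difference between the libraries had in the level of Igf1r was not tested. Every call among the members, and its direction, held whichever of the 6 libraries was left out. The size of the fitted change was less firm for genes absent from a cell type, since it then depends on the small count or pseudocount that is added. The log2 fold change of Igfbp1 lay between 11.0 and 18.2 over the alternatives and that of Igfbp5 between -10.8 and -4.01.

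**Figure D3:**
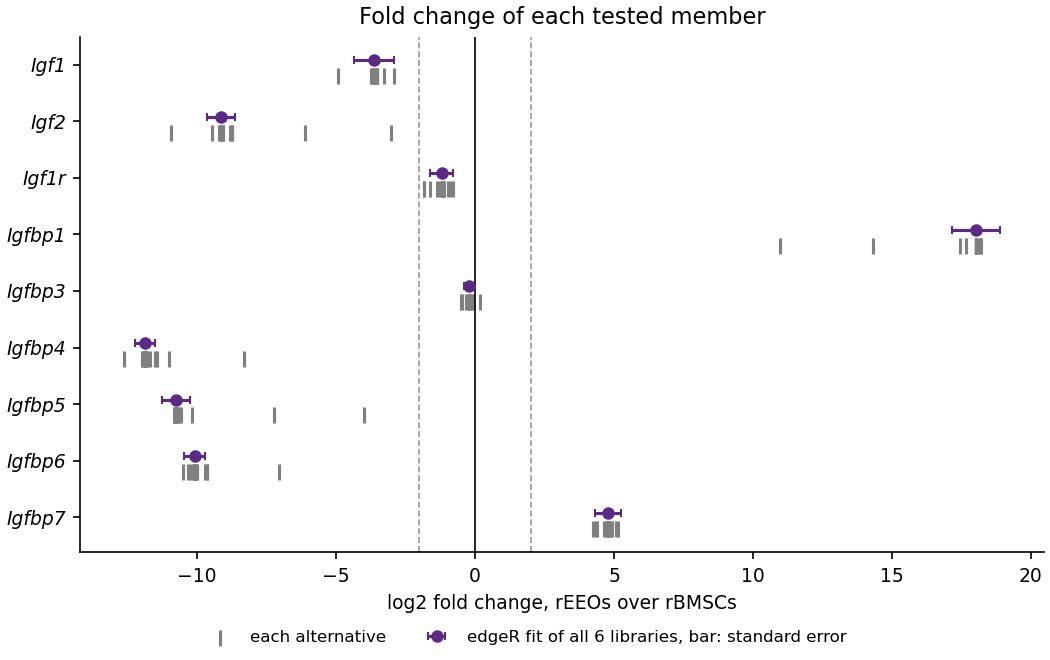
Log2 fold change of rEEOs over rBMSCs for the 9 members tested, with the edgeR fit of all 6 libraries as a point, its standard error as a bar, each alternative as a grey tick and dashed lines at the call threshold of 2 either way. Igfbp7 at 4.77 and Igfbp1 lie to the right, Igf1r and Igfbp3 lie between the dashed lines, and the ticks spread widely for Igf2, Igfbp1 and Igfbp5, which had almost no reads in 1 cell type.

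The other genes of the pathway were taken from a list of 65 genes, of which 45 were held and 37 tested. The list was drawn up with results of these data known. Of the 37, 2 were called higher and 11 lower in rEEOs, which is 35.1% of those tested, compared to 29.7% of all genes (16.3% higher and 13.3% lower). The median log2 fold change was -0.51, compared to 0.08 over all genes. Listed genes with almost no count in 1 cell type passed the filter on low counts through the other. The counts of calls by role are therefore a description of the list. Among the other receptors, Insr, the insulin receptor, had 5.97, 4.96 and 5.68 TPM in rBMSCs and 19.7, 4.41 and 4.18 TPM in rEEOs. Only rEEOs replicate 1 was high, the groups overlapped, and the log2 fold change was 0.86 (SE 0.49, edgeR adjusted p = 0.165). Igf2r was not analysed here. Igfals, which encodes the liver protein that joins IGFs and IGFBP3 in serum, had 0 counts in rBMSCs and 0.09, 0.64 and 0.26 TPM in rEEOs, too few reads to be tested.

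Proteins that cut the binding proteins, or hold the cutting enzymes back, were called lower in rEEOs for 3 of the 5 tested, compared to 13.3% of all genes tested. All 3 had at most 4 counts in any rEEOs library. They passed the filter on low counts through rBMSCs alone, so only a lower call was open to them. The other 2 were not called: Stc1, a stanniocalcin, had a log2 fold change of 1.65 (edgeR adjusted p = 0.0602), and the protease gene Adamts1 one of -0.51 (edgeR adjusted p = 0.472). Pappa and Pappa2 encode pappalysins, proteases that release IGFs by cutting binding proteins, IGFBP4 and IGFBP5 among them. Pappa2 had 53.9, 40.9 and 55.0 TPM in rBMSCs and no count in rEEOs, at least 1584-fold lower (edgeR adjusted p = 2.28e-05). Pappa had 11.3, 7.93 and 12.1 TPM in rBMSCs and 0.04, 0.01 and 0 TPM in rEEOs (edgeR adjusted p = 3.04e-05). Stc2, which encodes a stanniocalcin that inhibits the pappalysins, had 17.3 ± 2.65 TPM in rBMSCs and 0.350 ± 0.303 TPM in rEEOs (SD, n = 3, edgeR adjusted p = 0.000567). Igfbp4 and these proteases were thus read in rBMSCs and hardly at all in rEEOs.

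Among 6 tested genes whose products resemble the binding proteins in sequence or bind alongside them, 5 were called lower in rEEOs, compared to 13.3% of all genes tested, and Cyr61 (Ccn1) was not called. Of the 5, Esm1, Nov and Wisp1 had at most 2 counts in any rEEOs library and passed the filter through rBMSCs alone. Wisp1 (Ccn4), a matricellular Wnt target, had 142.6 ± 17.5 TPM in rBMSCs and 0.033 ± 0.058 TPM in rEEOs (SD, n = 3, edgeR adjusted p = 9.91e-06). Nov (Ccn3) and Esm1, which is known from endothelium, had 20.1 ± 0.65 and 1.52 ± 0.49 TPM in rBMSCs and no count in rEEOs, at least 80.4-fold and 9.52-fold lower.

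In the signaling chain behind the receptor, 3 of 7 tested docking proteins and adaptors and 1 of 12 PI3K and Akt genes were called (42.9% and 8.33%), compared to 29.7% of all genes tested. Irs1, which encodes the docking protein that couples the IGF1 and insulin receptors to PI3K, had 13.4, 9.47 and 12.8 TPM in rBMSCs and no count in rEEOs, at least 212-fold lower (edgeR adjusted p = 5.64e-05). Grb10, an adaptor that restrains both receptors, had 162, 148 and 170 TPM in rBMSCs and 11.3, 0.21 and 0.90 TPM in rEEOs, where replicate 1 was again the highest (edgeR adjusted p = 0.0111). Grb7, a related adaptor of receptor kinases, went the other way with 0.147 ± 0.057 TPM in rBMSCs and 58.2 ± 12.5 TPM in rEEOs (SD, n = 3, edgeR adjusted p = 2.23e-05). Pik3cb, a catalytic PI3K subunit, was called higher with 1.18 ± 0.13 TPM in rBMSCs and 11.0 ± 3.81 TPM in rEEOs, a log2 fold change of 3.42 (SE 0.21, edgeR adjusted p = 3.91e-05). At any fold change, 5 of the 7 docking proteins and adaptors were lower and 1 was higher with an adjusted p under 0.05. Over all genes tested these shares were 30.2% and 33.3%. Irs2, Gab1 and Irs3, also named after their values were seen, were lower without a call. These had log2 fold changes of -1.61, -1.36 and -1.23 (edgeR adjusted p = 0.0118, 0.000572 and 0.0492). Named after their values were seen, Akt1, Akt2 and Tsc2 were lower and Pik3r1 was higher in rEEOs without a call. Their log2 fold changes were -1.69, -0.86, -0.71 and 0.44, in that order (edgeR adjusted p = 0.000177, 0.00119, 0.00231 and 0.0219). None of the 4 tested forkhead factors and their targets was called, by edgeR's quasi-likelihood test at the same thresholds, and 1 of them, Ccng2, named after its values were seen, had an adjusted p below 0.05 (log2 fold change 1.48, adjusted p = 0.00552). Of the proteins that bind Igf2 mRNA, Igf2bp3 was called lower, with 13 to 27 counts in rBMSCs and at most 1 in rEEOs (edgeR adjusted p = 0.00178).

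**Figure D4:**
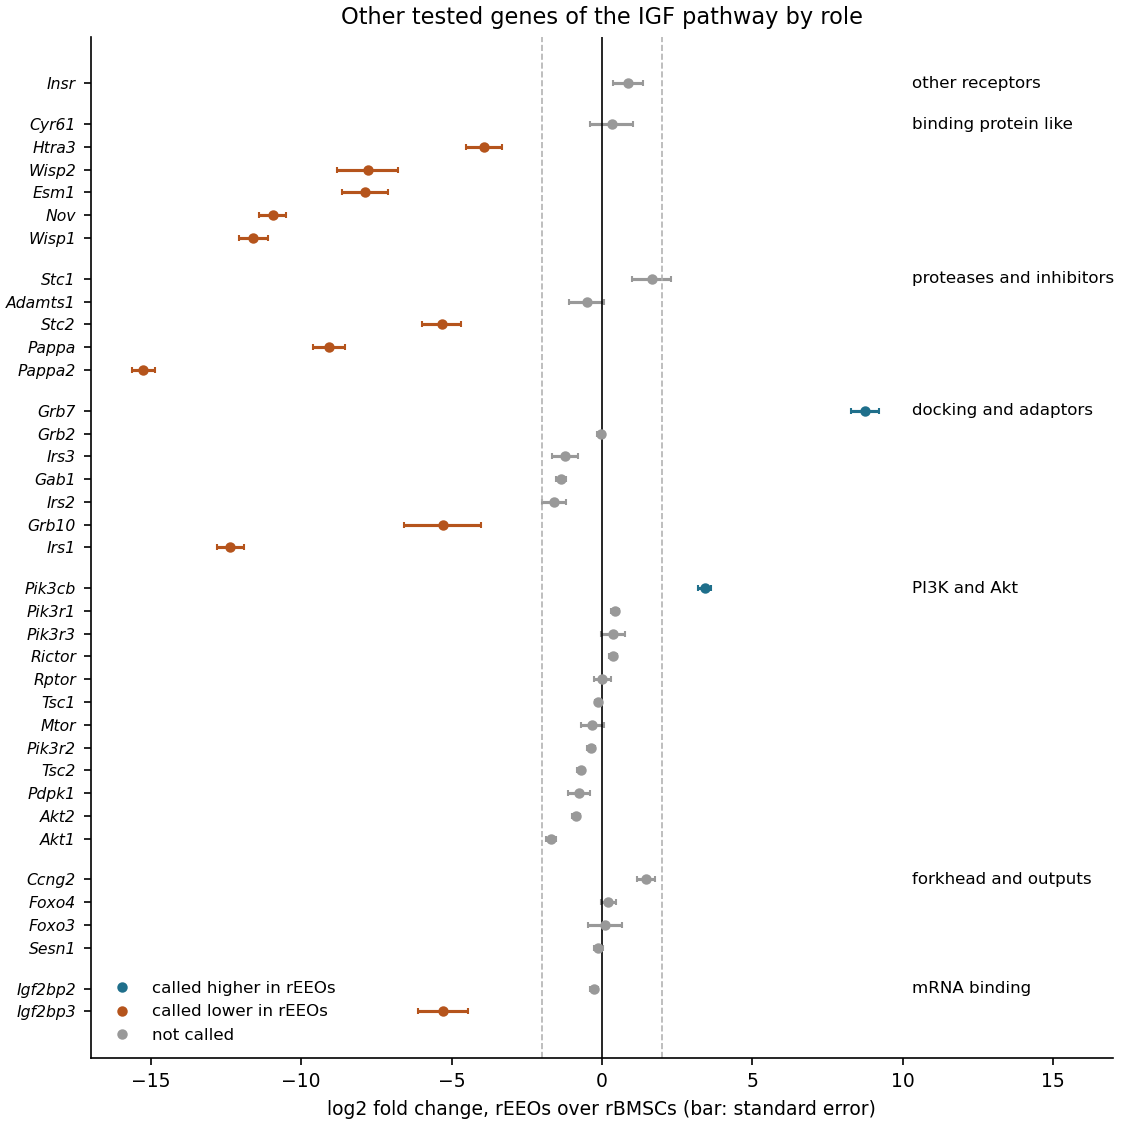
Log2 fold change of rEEOs over rBMSCs for the 37 tested pathway genes, by role, with the standard error as a bar, colors for the call and dashed lines at 2 either way. Of the binding protein like genes 5 of 6 were called lower and of the proteases and inhibitors 3 of 5, compared to 13.3% of all genes tested, and 11 of 12 PI3K and Akt genes lie between the lines or miss the adjusted p. Several of the genes called lower had almost no count in rEEOs and passed the filter on low counts through rBMSCs alone.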

How the data were processed

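RNA from 3 rBMSCs and 3 rEEOs samples was read by single-end sequencing on a BGISEQ platform. The authors trimmed reads with Trim Galore, aligned them with Bowtie2 2.2.5 to the rat genome (the submitters' processing notes list Rnor_6.0) and ran RSEM. The deposited expected counts are not normalized. The TPM and FPKM values were also made by the authors, and FPKM was read only for its median ratio to TPM in each library. All 60 counts of the members are whole numbers. The copy analysed ends part-way through its last row, whose values per sample are complete, and its genes hold between 81.3% and 82.7% of each library's TPM.

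Expected counts were rounded, and a gene was tested where 3 or more of the 6 libraries held 10 or more counts, by edgeR 4.0.16 (TMM, glmQLFit, glmQLFTest) in R 4.3.3, with a single term for cell type, and p-values were adjusted by Benjamini-Hochberg over 10607 genes. The code was checked on simulated data. Bounds use 3 counts per library. The alternatives were DESeq2 1.42.0, its size factors, library size only, filters of 1 count in any library and of 50 counts in 3, limma 3.58.1 (with a mean trend) on log2(TPM + 1) and log2(TPM + 0.1), a fold threshold of 1 on the log2 scale, each library left out, a replicate block, and other units for shares. Upper quartile factors and sums without Igfbp7 were chosen after the data were seen, and so were the promoter motifs.

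The members and lists were chosen with earlier results of these data known. Named were all members, up to 3 called genes per role and direction of the pathway list, Insr, Igf2r and Igfals, and the 3 genes closest in pattern to the leading binding protein of each cell type. The marker lists also held 7 macrophage and 5 endothelial genes among those held. Of the macrophage genes only Cd14 was tested and it was called higher in rEEOs (34.2 compared to 5.32 TPM), and the other 6 had at most 18 counts in a library. Of the endothelial genes, 1 of 2 tested was called lower in rEEOs. Of the listed genes, Cyr61, Nov, Wisp1 and Wisp2 were matched through RefSeq gene IDs. One item of the pathway list is not reported here. Figures used matplotlib 3.10.9.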

Additional observations from a re-analysis of the deposited data

How the results depend on the processing

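The members called numbered 2 higher and between 4 and 5 lower in every alternative at the log2 threshold of 2, and 6 lower at a threshold of 1, where Igf1r was added. Igf1 could not be tested with limma or with the filter of 50 counts. For Igfbp3 the log2 fold change was 0.16 with library size only, against -0.22. The log2 ratio of Igfbp7 to Igfbp4 in rBMSCs was -0.44 by CPM and -0.44 by expected counts, against 0.80 by TPM, since counts are not divided by length. By CPM and by expected counts alike, the share of Igfbp7 in rBMSCs was 29.1% and that of Igfbp4 39.4%. With Igfbp7 left out of the sum, the share of Igfbp4 in rBMSCs was 49.1%, that of Igfbp1 in rEEOs 93.2% and the log2 ratio of the leader to the next in rEEOs 3.90, by construction. The pathway genes called higher numbered 4 with the DESeq2 Wald test and 4 with a filter of 1 count in any library, against 2. The DESeq2 run was also given all 13728 genes held rather than the 10607 that passed the filter, and the cause was not tested. At a log2 threshold of 1, 46.7% of all genes tested were called, against 29.7%.

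Leaving out 1 library at a time, the members called stayed at 2 and 5, the pathway genes at between 2 and 3 higher and at 11 lower, and the share of all genes called lay between 28.4% and 32.9%. The log2 ratio of the leading to the next binding protein in rBMSCs ranged from 0.79 to 0.82, and that in rEEOs from 2.09 to 2.99. The share of Igfbp7 in rBMSCs ranged from 45.9% to 46.2%, and that in rEEOs from 79.8% to 87.2%. That of Igfbp4 in rBMSCs lay between 26.1% and 26.8%. That of Igfbp1 in rEEOs lay between 11.6% and 19.1%, the extremes coming without replicate 2 and without replicate 3.

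The labels name nothing that samples with the same replicate number share. The correlations of their deviations from the group means were 0.16, 0.18 and -0.16, too few values to show whether a batch was shared. With a replicate block, 2 members were called higher and 5 lower, 2 pathway genes higher and 11 lower, and 30.5% of all genes tested were called. Depth limits Igf1, Igfbp2 and the rEEOs levels of Igf2, Igfbp4, Igfbp5 and Igfbp6, which rest on a few reads or none.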
